A study of Drosophila melanogaster with 16 samples.

Results

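RasV12baz- tumours were set against RasV12scrib- tumours of the Drosophila melanogaster larval eye-antennal disc, the epithelial sac that forms the adult eye and antenna. Both genotypes carry RasV12, an activated form of the small GTPase Ras, and differ in the polarity gene that was lost. The comparison asks how far tumours with the same oncogene differ when the lost gene belongs to the apical or to the basolateral polarity machinery. Its members were all 4 RasV12baz- and all 4 RasV12scrib- arrays, chosen by their labels, 8 of the 16 arrays in the series. Each array held tumour RNA in one dye and wild-type reference RNA in the other, and gave a log2 ratio of tumour to wild-type for 11196 features. The labels call the arrays biological replicates.

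Tumours arose from clones of mutant cells and were taken at day 10, so a dissected disc can also hold cells that are not mutant. The wild-type reference discs, from larvae of the same instar but carrying none of these mutations, were taken at day 5 to 6, and all larvae were kept at 25 °C. About 30 to 40 discs were pooled per RNA sample. The alleles, the driver of RasV12 and the clone-marking system are not given in the sources used here. Tumour RNA was in Cy3 on all 4 RasV12baz- arrays and on RasV12scrib- replicates 2 and 4, and in Cy5 on RasV12scrib- replicates 1 and 3. RasV12cdc42- and RafGOFscirb- tumours, the other genotypes of the series, entered the same model and are used below only to place the values; RafGOFscirb- carries a gain-of-function Raf with scrib loss, spelled here as in the labels. In such bulk samples fewer cells of a type and less RNA per cell cannot be told apart.

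Epithelial cells keep an apical and a basolateral membrane domain apart. Bazooka, the product of baz and the fly Par3 protein, is a scaffold of the apical Par complex, which also holds Par-6 and atypical protein kinase C and works with the GTPase Cdc42. Scribble acts with Discs large and Lethal giant larvae at the basolateral side, where these proteins limit the apical domain and act as tumour suppressors in imaginal discs. In this tissue loss of scrib together with activated Ras is known for large, invasive tumours. A symbol could be given to 71 features, and the other features appear by identifier or in counts. Neither baz nor scrib was among the 71, so the loss itself was not checked here. None of 11 eye-antennal disc markers was among them either, so the labelled tissue was not checked here by its markers.

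RasV12baz- replicate 4 stood apart from the other RasV12baz- arrays. Across features, which are not independent replicates, RasV12baz- replicates 1 to 3 correlated with one another at r = 0.51 to 0.66. Replicate 4 correlated with these at 0.28 to 0.44, with the RasV12scrib- arrays at 0.35 to 0.55 and with the RasV12cdc42- arrays at 0.23 to 0.71. Its highest correlations were with RasV12cdc42- replicates 3 and 4, at 0.65 and 0.71, against 0.39 and 0.23 with RasV12cdc42- replicates 1 and 2. With RasV12scrib- replicates 3 and 4 it correlated at 0.55 and 0.54, against 0.35 and 0.38 with RasV12scrib- replicates 1 and 2. Results are therefore given with and without it. RafGOFscirb- replicates 1 and 2 shared the same value for 95.07% of features, differed by less than other replicates do, and were counted as 1 sample. A positive ratio was read as higher in the tumour, which is likely from the order of the channels in the labels but is not stated. If the deposited ratios run the other way, every higher and lower below changes places at the same size. Whether the dye-swapped arrays had been turned is not stated either. The swapped RasV12scrib- replicates 1 and 3 correlated with the unswapped replicates 2 and 4 at r = 0.45 to 0.81, all positive, so the arrays were taken to run the same way.

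Between the genotypes 338 features differed, 276 higher and 62 lower in RasV12baz- (limma, Benjamini-Hochberg adjusted p under 0.05). These are 3.02% of the 11196 features tested, 2.47% higher and 0.554% lower. The median log2 difference was 1.39 among the higher and -1.60 among the lower features, against 0.13 over all features. At least 2-fold differences were found in 260 of the higher and 61 of the lower features, and at least 4-fold differences in 36 and 18. In 297 of the 338 features no RasV12baz- array fell within the range of RasV12scrib- or the reverse. The same held for 1138 of all features (10.2%), with RasV12baz- above in 8.25% and below in 1.91%, and for 19.5% without RasV12baz- replicate 4.

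Without RasV12baz- replicate 4 the count was 649, 490 higher and 159 lower (5.80% of features, 4.38% higher and 1.42% lower). Of the 338 features 327 were called again, all with the same sign, which is 96.7% of the 338 and 50.4% of the 649. A further 322 were called only without that array, 223 higher and 99 lower. The surplus of higher features varied with the scale of the arrays. With each array centred on its median, which took the median difference to 0.03, 258 were higher and 106 lower, and with centring and without replicate 4 it was 363 and 360. Quantile normalization gave 107 and 55, and equal spread on all arrays 56 and 4. The count fell to 162 and 128 without RasV12baz- replicates 1 and 2, to 158 and 171 without RasV12scrib- replicates 2 and 4, and to 201, 193 and 219 without RasV12cdc42- replicates 1, 3 and 4. Among arrays whose tumour RNA was in Cy3, 75 features passed, 61 higher and 14 lower. RasV12scrib- replicates 1 and 2 correlated at r = 0.77 and replicates 3 and 4 at 0.81, against 0.45 to 0.51 for the other pairs. In RasV12cdc42- the same pairs correlated at 0.80 and 0.81, against 0.20 to 0.44 for the others. In RasV12baz- they correlated at 0.66 and 0.28. When these pairs of replicates entered as random blocks within every genotype, 27 features passed. Of the 5 genes with a symbol called below, Swim passed in that fit (adjusted p = 0.0248), while Ts (adjusted p = 0.320), CG12091 (0.259), Lsp2 (0.390) and AMPKalpha (0.291) did not.

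**Figure D1:**
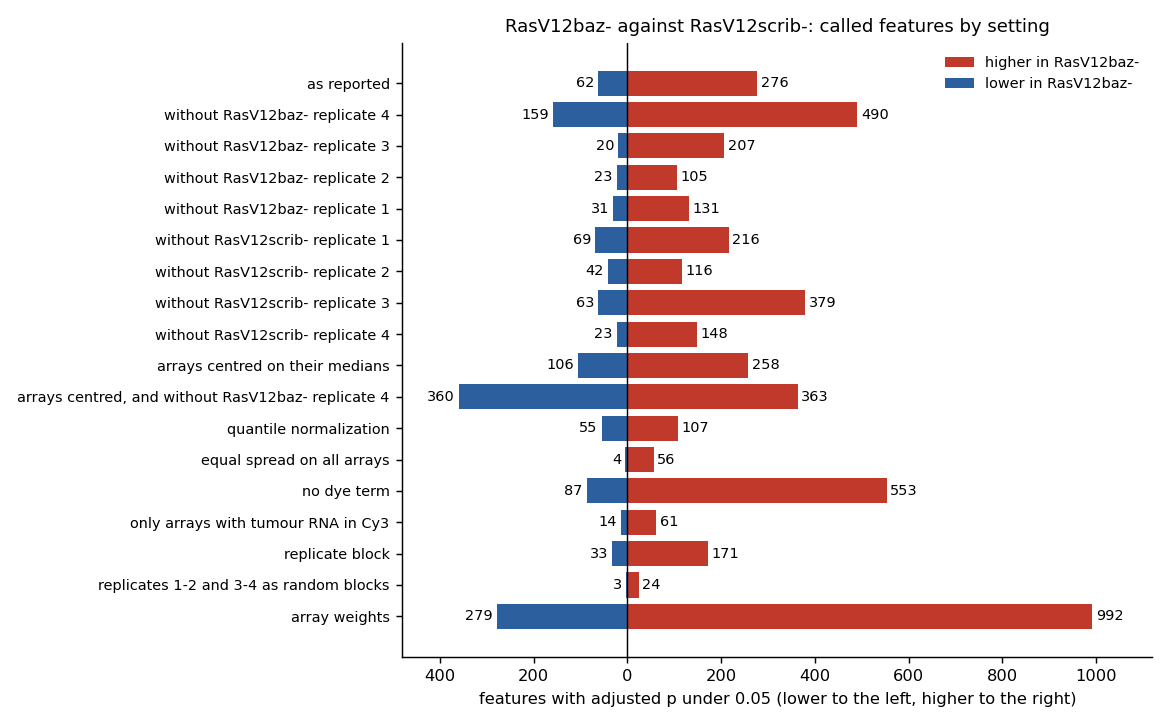
Number of features with adjusted p under 0.05 between RasV12baz- and RasV12scrib- tumours under the reported setting (top bar) and under other settings. Bars to the right count features higher in RasV12baz-, bars to the left features lower in RasV12baz-; the higher features outnumber the lower ones in each bar, by 363 to 360 with centring and without RasV12baz- replicate 4.

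Relative to wild-type, the differences lay mostly on the side of the RasV12scrib- tumours, except in the higher features under quantile normalization. The 276 features higher in RasV12baz- had a median log2 ratio to wild-type of 0.37, 0.44, 0.08 and -0.09 on RasV12baz- replicates 1 to 4, against -1.28, -1.31, -1.06 and -1.14 on RasV12scrib- replicates 1 to 4. In RasV12baz- these features thus stood near the wild-type level and in RasV12scrib- below it, with no overlap of the array medians. The 62 features lower in RasV12baz- had medians of 0.48, 0.47, -0.03 and 0.96 on the RasV12baz- arrays, against 1.37, 2.01, 2.16 and 2.06 on the RasV12scrib- arrays. These medians were above wild-type on all RasV12scrib- arrays and nearer to it on the RasV12baz- arrays. The genotypes lay on opposite sides of wild-type in 58% of the 276 higher and 33.9% of the 62 lower features, against 34.5% of all features. Without RasV12baz- replicate 4 the shares were 72.7% of 490 higher, 57.9% of 159 lower and 37.2% of all features. These levels describe features chosen by this same contrast and are no test of it.

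Counted per feature, the RasV12scrib- fitted value was farther from wild-type than the RasV12baz- value in 223 of the 276 higher features (80.8%) and in 58 of the 62 lower ones (93.5%). Over all features the share was 53.3%. Without RasV12baz- replicate 4 the shares were 70.0% of 490 higher features, 83.6% of 159 lower features and 45.5% of all. With centred arrays they were 84.1%, 91.5% and 58.1%. Under quantile normalization the share among the higher features dropped to 39.3%, against 47.2% over all features, while that among the lower features was 80.0%. Which genotype lay farther from wild-type in the higher features therefore depended on the normalization.

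**Figure D2:**
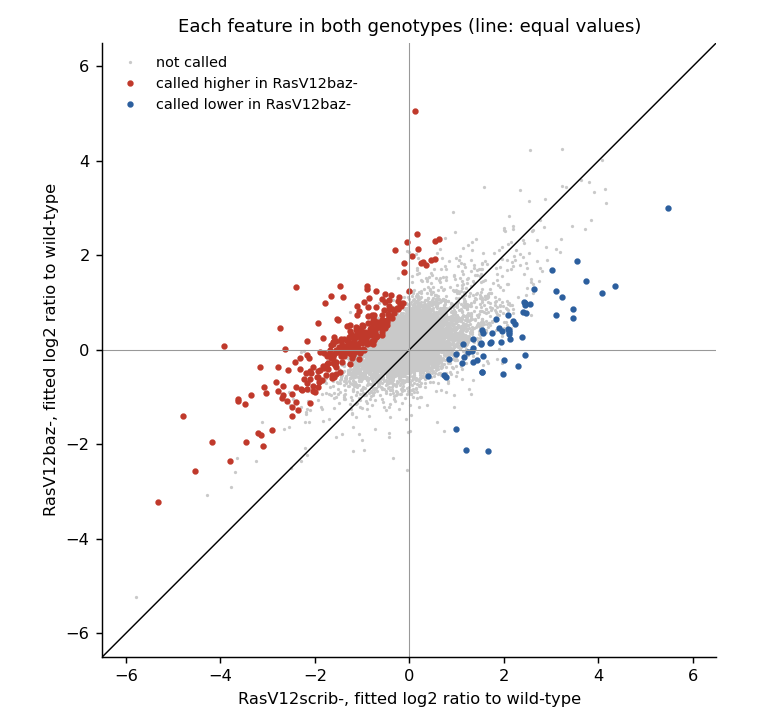
Fitted log2 ratio to wild-type of each of 11196 features in RasV12baz- tumours (vertical axis) and RasV12scrib- tumours (horizontal axis). Red points are the 276 features called higher in RasV12baz-, blue points the 62 called lower, and grey points the rest; most red points lie left of 0 and most blue points right of 0 on the RasV12scrib- axis while staying nearer 0 on the RasV12baz- axis.

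The medians of the other genotypes in the same features are given as a description: these features were chosen for the gap between RasV12baz- and RasV12scrib-, which by itself places other tumours between them. The median fitted log2 ratio of the 276 higher features was 0.20 in RasV12baz-, -0.20 in RasV12cdc42-, -0.17 in RafGOFscirb- and -1.20 in RasV12scrib-. For the 62 lower features it was 0.29 in RasV12baz-, 0.75 in RasV12cdc42-, 0.77 in RafGOFscirb- and 1.97 in RasV12scrib-. Over all features these medians were 0.15, 0.14, 0.24 and 0.05 in the same order. RafGOFscirb- tumours also lack scrib, and in the higher features their arrays, with medians from -0.38 to 0.06, lay above all RasV12scrib- arrays. In the lower features RafGOFscirb- replicates 1 and 2, with a median of 1.75, lay within the RasV12scrib- range, and replicates 3 and 4, at 0.68 and 0.58, below it. RasV12baz- replicate 4, at 0.96 in these features, lay within the RasV12cdc42- range of 0.48 to 1.05.

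**Figure D3:**
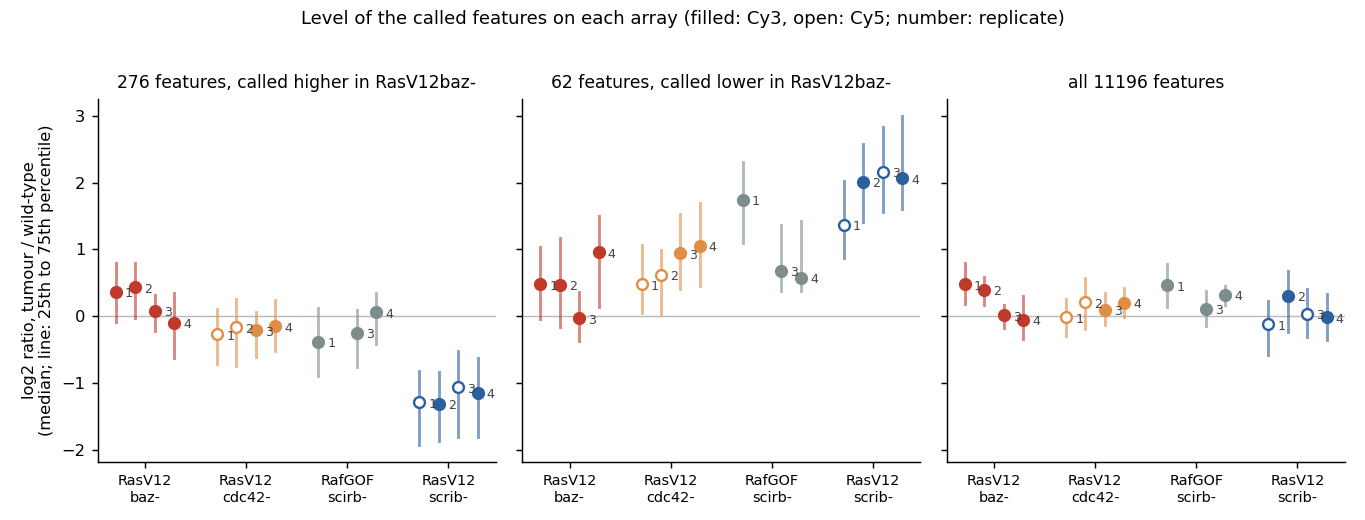
Median log2 ratio to wild-type (points, with lines from the 25th to the 75th percentile) on each array over the 276 features higher in RasV12baz-, the 62 lower features and all features. The RasV12scrib- medians lie between -1.31 and -1.06 for the higher set and between 1.37 and 2.16 for the lower set, apart from all RasV12baz- medians; RafGOFscirb- replicate 1 stands for the near-identical replicates 1 and 2.

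Among the RasV12baz- arrays the margin to RasV12scrib- was unequal. Replicate 4 was the lowest RasV12baz- array in 171 of the 276 higher features (62.0%) and replicate 3 in 81 (29.3%). Over all features replicate 4 was the lowest in 50.6% and replicate 3 in 42.9%, since both arrays had low medians. In the 62 lower features replicate 4 was the highest RasV12baz- array in 32 (51.6%), against 15.8% of all features. With centred arrays replicate 4 was the nearest to RasV12scrib- in 41.1% of the higher and 60.4% of the lower features, against 33% and 37.8% over all features. These shares are descriptions of chosen features, with no test.

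On the RasV12baz- arrays fewer features lay far from the array's median than on the RasV12scrib- arrays. The share of features at least 2-fold from the array's own median was 6.48%, 5.48%, 2.80% and 8.26% on RasV12baz- replicates 1 to 4. On RasV12scrib- replicates 1 to 4 it was 15.5%, 16.9%, 12.4% and 12.1%. Every RasV12scrib- array exceeded every RasV12baz- array. The direction differed within RasV12scrib-: on replicates 1 and 2, 10.4% and 12.4% lay below and 5.06% and 4.48% above. On replicates 3 and 4, 4.18% and 4.22% lay below and 8.18% and 7.84% above. The share ran from 3.22% to 11.3% on RafGOFscirb- arrays and from 5.18% to 10.7% on RasV12cdc42- arrays. The mean was 5.75% ± 2.28 in RasV12baz- and 14.2% ± 2.35 in RasV12scrib- (SD, n = 4 each), a difference of -8.44 percentage points (exact permutation test, two-sided p = 0.0286, the smallest that 4 against 4 can give). Without RasV12baz- replicate 4 the difference was -9.27 points (exact two-sided p = 0.0286, the smallest possible). On the Cy3 arrays alone it was -8.71 points with 4 against 2 arrays, where the exact p of 0.0667 is the smallest that can be reached. These tests took the arrays as independent. RasV12scrib- replicates 1 and 2, and replicates 3 and 4, correlated as pairs, so these p values can be too small. Tested feature by feature against wild-type, 409 features were higher and 123 lower in RasV12baz- (3.65% and 1.10%), and 1160 were higher and 1309 lower in RasV12scrib- (10.4% and 11.7%). The standard errors of the RasV12baz- values were larger because none of its arrays was dye-swapped, and the difference between these counts was not tested. Quantile normalization brought the counts closer, with 1234 higher and 275 lower in RasV12baz- and 1519 higher and 592 lower in RasV12scrib-, so that higher features prevailed in both. Without the dye term they were 842 and 141 in RasV12baz- and 1116 and 1222 in RasV12scrib-. The share of features beyond 2-fold was chosen as a measure after its values were seen, so its p values describe a gap already known. Array quality, which can also widen an array, was not tested.

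**Figure D4:**
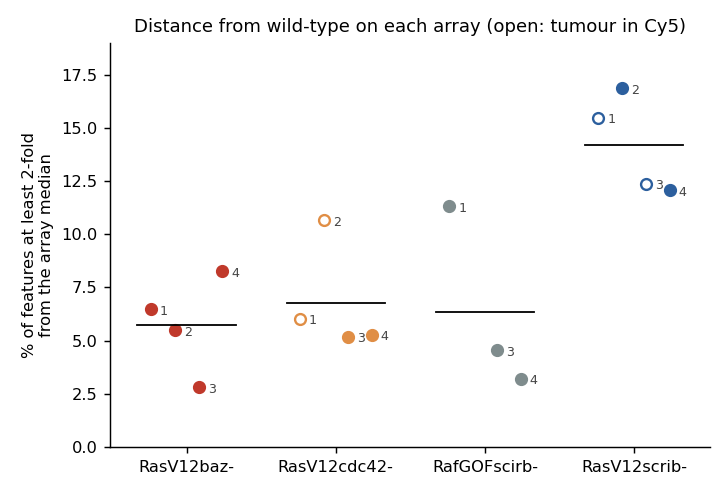
Share of features (in %) at least 2-fold from the array's median, one point per array (filled, tumour RNA in Cy3; open, Cy5; number, replicate), with the mean of each genotype as a bar. The RasV12baz- arrays lie between 2.80% and 8.26%, below all RasV12scrib- arrays at 12.1% to 16.9%; RafGOFscirb- replicate 1 stands for replicates 1 and 2.

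Of the 71 features with a symbol, 5 were higher in RasV12baz- and none was lower, against 3.02% of all features called. They were Swim, Ts, CG12091, Lsp2 and AMPKalpha. Of the other 66 the fitted log2 differences ran from -0.98 to 1.37 with a median of 0.07, and 43 of the 71 were above 0. At an unadjusted p under 0.05, 17 of the 71 stood out, 13 higher and 4 lower, against 16.1% of all features (11.5% higher and 4.56% lower). Without RasV12baz- replicate 4, 6 of the 71 passed (5.80% of all features).

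Swim encodes a secreted partner of the signalling protein Wingless. Its log2 ratio to wild-type was 3.19, 3.06, 1.52 and 1.93 on RasV12baz- replicates 1 to 4, against -0.51, 0.33, 0.03 and -0.05 on RasV12scrib- replicates 1 to 4. All RasV12baz- arrays were far above wild-type and the RasV12scrib- arrays lay around it, so the genotypes did not overlap. The mean was 2.42 ± 0.83 in RasV12baz- and -0.05 ± 0.35 in RasV12scrib- (SD, n = 4 each). The fitted log2 difference was 2.33 ± 0.36 (SE, 5.02-fold, limma adjusted p = 0.00154). It was 2.49 ± 0.37 without RasV12baz- replicate 4 (adjusted p = 0.000964), 2.23 with centred arrays (adjusted p = 0.000611) and 2.28 ± 0.46 on the Cy3 arrays (adjusted p = 0.0309). Among the other tumours the RasV12cdc42- arrays ranged from 0.47 to 1.03 and the RafGOFscirb- arrays from 0.03 to 0.41. Swim was higher in RasV12baz- than in RafGOFscirb- as well, by 2.19 ± 0.35 on the log2 scale (adjusted p = 0.00312). Its fitted difference of RasV12cdc42- minus RasV12baz- was -1.53 ± 0.36, which did not pass (adjusted p = 0.170). Of the 14 Wingless pathway genes in the list used, Swim was the only one with a symbol here, so nothing can be said of the pathway.

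Ts encodes thymidylate synthase, which makes the thymidine nucleotide needed for DNA replication. Its log2 ratio was 1.12, 1.40, 0.67 and 0.25 on the RasV12baz- arrays, against -0.33, -0.74, -0.53 and 0.14 on the RasV12scrib- arrays. The genotypes did not overlap, although RasV12baz- replicate 4 and RasV12scrib- replicate 4 differed by little. The log2 difference was 1.23 ± 0.30 (2.34-fold, adjusted p = 0.0319) and 1.43 ± 0.29 without RasV12baz- replicate 4 (2.70-fold, adjusted p = 0.00805). It was 1.16 ± 0.41 on the Cy3 arrays alone, where it did not pass (adjusted p = 0.260). The call also ended without RasV12baz- replicate 1 or 2, RasV12scrib- replicate 2 or RasV12cdc42- replicate 1, 3 or 4, with adjusted p from 0.0570 to 0.140. RafGOFscirb- arrays were at 1.06 to 1.35, and the RasV12cdc42- arrays at 0.05 to 0.36. The fitted difference of RasV12baz- minus RafGOFscirb- was -0.38 ± 0.29 (adjusted p = 0.889). No other of the 17 replication and nucleotide synthesis genes in the list had a symbol.

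CG12091 had log2 ratios of 0.75, 0.79, 0.31 and 0.34 on the RasV12baz- arrays, against -0.46, -0.71, -0.12 and -0.55 on the RasV12scrib- arrays. All RasV12baz- arrays were above wild-type and all RasV12scrib- arrays below it. The log2 difference was 1.21 ± 0.27 (2.31-fold, adjusted p = 0.0189), and 1.28 ± 0.28 without RasV12baz- replicate 4 (adjusted p = 0.0127). On the Cy3 arrays alone it was 1.18 ± 0.36 and did not pass (adjusted p = 0.169). The call ended without RasV12baz- replicate 1 or 2 and without RasV12scrib- replicate 2 or 4, with adjusted p from 0.0517 to 0.0750. RasV12cdc42- arrays ran from -0.49 to 0.61 and RafGOFscirb- arrays from 0.06 to 0.31.

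Lsp2 encodes a larval serum protein, a storage protein that the fat body makes and releases into the blood. Its log2 ratio was 2.60, 0.36, 0.03 and -3.22 on the RasV12baz- arrays, against -4.40, -4.44, -4.36 and -2.49 on the RasV12scrib- arrays. RasV12baz- replicate 4 fell inside the RasV12scrib- range, and the other RasV12baz- arrays lay above it. The log2 difference with all arrays was 3.99 ± 1.01 (15.9-fold, adjusted p = 0.0373). Without RasV12baz- replicate 4 it was 5.05 ± 0.84 (33.1-fold, adjusted p = 0.00214), and the genotypes no longer overlapped. With centred arrays it was 3.90 (adjusted p = 0.0669) and on the Cy3 arrays 3.41 ± 0.99 (adjusted p = 0.147). Leaving out RasV12baz- replicate 1, 2 or 3, RasV12scrib- replicate 1 or 2, or any one RasV12cdc42- array also ended the call, with adjusted p from 0.0537 to 0.122. The level varied over a wide range in other tumours too, from -2.49 to -0.46 on RasV12cdc42- arrays and from -3.05 to 0.40 on RafGOFscirb- arrays. Lsp2 was the only one of 7 fat body markers with a symbol, so the marker list could not be summed. The part of fat body RNA in the other differences was not tested.

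AMPKalpha encodes the catalytic subunit of AMP-activated protein kinase, a sensor of cellular energy, and was named after its values were seen. Its log2 ratio was 0.41, 0.48, -0.05 and 0.46 on the RasV12baz- arrays, against -1.44, -1.85, 0.06 and -0.26 on the RasV12scrib- arrays. RasV12scrib- replicates 1 and 2 were low, and replicates 3 and 4 lay close to the RasV12baz- arrays or among them. The log2 difference was 1.44 ± 0.38 (2.72-fold, adjusted p = 0.0473). It was 1.40 ± 0.42 without RasV12baz- replicate 4 (adjusted p = 0.0553) and 1.35 with centred arrays (adjusted p = 0.0770). Without RasV12scrib- replicate 2 the adjusted p was 0.212. The call ended in 23 of 29 refits, among them each that left out 1 array of RasV12baz- or RasV12cdc42-, and also the one without RasV12scrib- replicate 1 (adjusted p = 0.0586).

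Both Ant2 and Eig71Ee, also named after their values were seen, passed without RasV12baz- replicate 4 and not with it. With centring and without that array neither passed (adjusted p = 0.0967 for Ant2 and 0.108 for Eig71Ee). Ant2 was called in 4 of 29 refits and Eig71Ee in 3. Ant2, a carrier that exchanges ADP and ATP across the inner mitochondrial membrane, had log2 ratios of 0.35, 0.54, 0.18 and -0.38 on the RasV12baz- arrays, against -0.59, -1.50, -0.61 and -0.09 on the RasV12scrib- arrays. The difference was 1.21 ± 0.32 without that array (adjusted p = 0.0321) and 1.02 ± 0.32 with it (adjusted p = 0.0966). Eig71Ee, a gene known for its induction by the moulting hormone ecdysone, had ratios of -0.34, -0.51, -0.37 and -1.98 on the RasV12baz- arrays, against -2.54, -1.19, -2.59 and -2.44 on the RasV12scrib- arrays. All 8 arrays were below wild-type, and RasV12baz- replicate 4 alone of its genotype lay within the RasV12scrib- range. The difference was 1.76 ± 0.50 without it (adjusted p = 0.0455) and 1.37 ± 0.52 with it (adjusted p = 0.182). Of the named genes called with all arrays, AMPKalpha alone was lost without replicate 4.

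**Figure D5:**
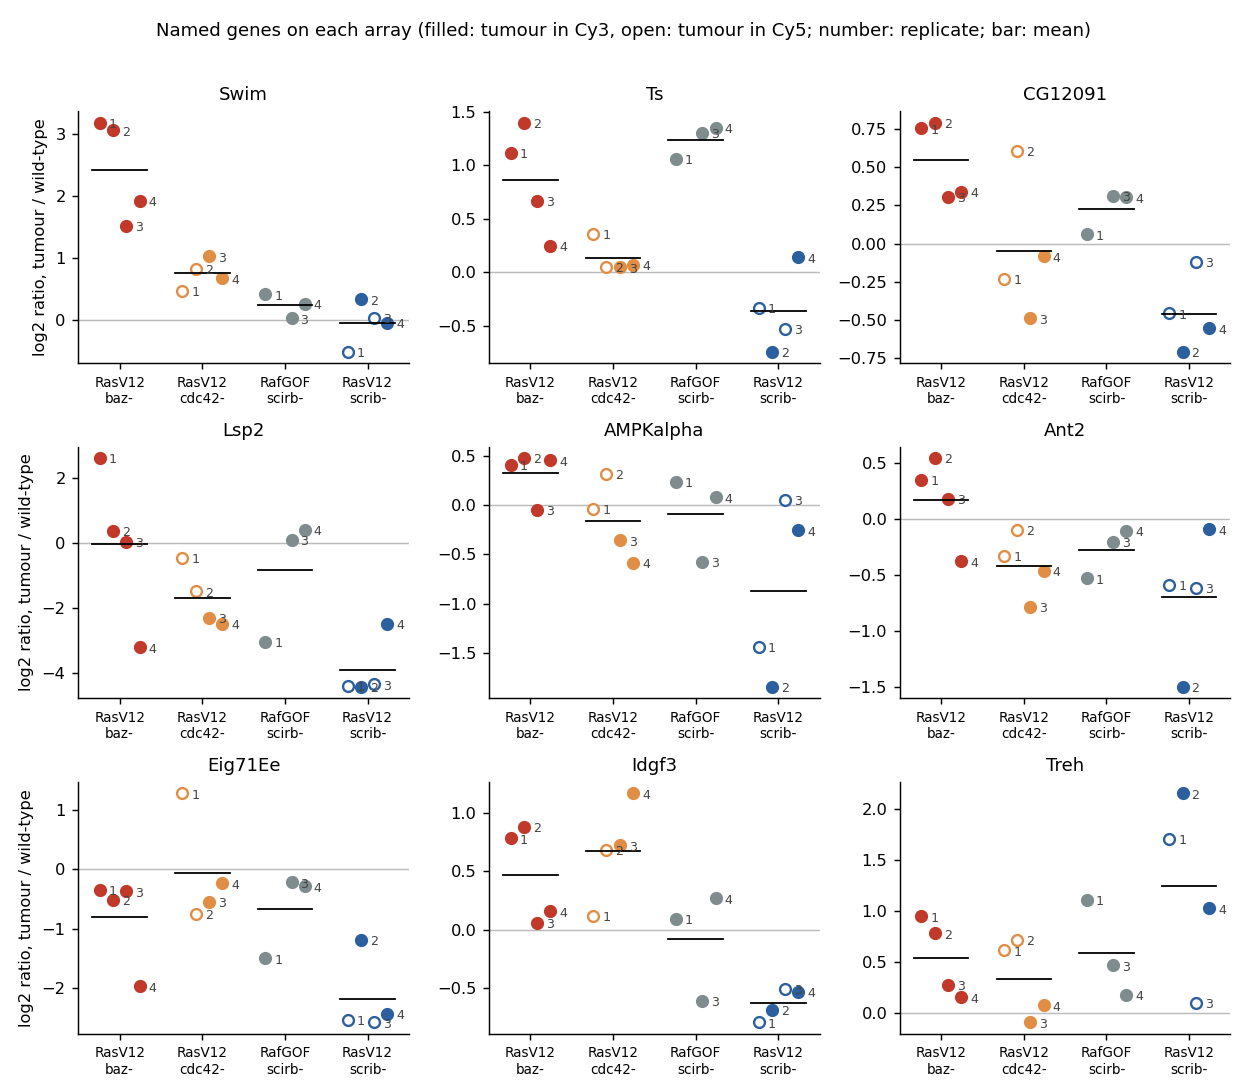
Log2 ratio of tumour to wild-type on each array for named genes in RasV12baz-, RasV12cdc42-, RafGOFscirb- and RasV12scrib- tumours (filled points, tumour RNA in Cy3; open points, Cy5; number, replicate; bar, mean; replicates 1 and 2 of RafGOFscirb- averaged). Swim, Ts and CG12091 have all RasV12baz- points above all RasV12scrib- points, while Lsp2, AMPKalpha, Ant2 and Eig71Ee have points that overlap.

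The other genes with a symbol in the lists did not pass. Idgf3, a secreted chitinase-like protein named as an imaginal disc growth factor, had log2 ratios of 0.79, 0.88, 0.06 and 0.16 on the RasV12baz- arrays, against -0.79, -0.68, -0.51 and -0.53 on the RasV12scrib- arrays. The genotypes did not overlap, and the difference was 0.95 ± 0.31 (adjusted p = 0.106) or 1.06 ± 0.32 without RasV12baz- replicate 4 (adjusted p = 0.0610). It passed when the dye term was left out, at 1.10 (adjusted p = 0.0235). Treh encodes trehalase, which splits the blood sugar trehalose into glucose. Its ratios were 0.95, 0.78, 0.27 and 0.15 on the RasV12baz- arrays, against 1.71, 2.15, 0.09 and 1.02 on the RasV12scrib- arrays, with a difference of -0.71 ± 0.41 (adjusted p = 0.429). LanA, the laminin alpha chain of basement membranes, differed by 0.27 ± 0.33 (adjusted p = 0.776). Ebp, Sec24CD and Herc4 were also without overlap but did not pass, at 1.21 (adjusted p = 0.0676), 0.63 (adjusted p = 0.226) and 0.44 (adjusted p = 0.402). They were named after their values were seen. Of the 71 features with a symbol 7 were without overlap, against 10.2% of all features.

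The widest differences without overlap were in features that carry no symbol here. FBgn0035193 had log2 ratios of 6.01, 5.35, 4.35 and 4.27 on the RasV12baz- arrays, against -0.09, -0.18, 0.60 and 0.13 on the RasV12scrib- arrays. It was far above wild-type on every RasV12baz- array and near it on the RasV12scrib- arrays. The difference was 4.94 ± 0.39 (30.7-fold, adjusted p = 8.68e-07). RasV12cdc42- arrays were at 4.39 to 5.00 and RafGOFscirb- arrays at 1.09 to 2.08, so no other tumour was as near to wild-type as RasV12scrib-. FBgn0000071 was above wild-type on the RasV12baz- arrays, at 1.93, 1.80, 0.88 and 1.76, and below it on the RasV12scrib- arrays, at -1.91, -3.06, -2.74 and -1.92. Its difference was 3.74 ± 0.38 (13.3-fold, adjusted p = 1.68e-05), with RasV12cdc42- arrays at 0.87 to 2.48 and RafGOFscirb- arrays at 0.66 to 0.97.

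Both features that were lower by the widest margin were below wild-type on the RasV12baz- arrays and above it on the RasV12scrib- arrays. FBgn0036606 had ratios of -1.09, -2.10, -1.66 and -2.29 on the RasV12baz- arrays, against 0.75, 2.13, 2.11 and 1.70 on the RasV12scrib- arrays, a difference of -3.82 ± 0.34 (14.1-fold, adjusted p = 4.30e-06). The RafGOFscirb- arrays, at 2.13 to 2.31, were on the RasV12scrib- side, and the RasV12cdc42- arrays, at -2.59 to -1.28, on the RasV12baz- side. The fitted difference of RasV12baz- minus RafGOFscirb- was -4.01 ± 0.33 (adjusted p = 2.12e-06). FBgn0033395 had ratios of -1.57, -1.71, -0.60 and -3.26 on the RasV12baz- arrays, against 0.44, 1.58, 0.84 and 1.90 on the RasV12scrib- arrays, a difference of -3.31 ± 0.43 (9.91-fold, adjusted p = 0.000313). RasV12cdc42- arrays were at -2.23 to -1.75 and RafGOFscirb- arrays at 0.38 to 0.66. Without RasV12baz- replicate 4 the differences of these 4 features were 5.18, 3.68, -3.65 and -2.82 in the order given. Each passed in all 29 refits, random blocks and Cy3 arrays alone included. The 4 were chosen for their wide differences on these same arrays, so passing again is no independent test.

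Against RasV12cdc42- tumours none of these 4 features differed past the threshold in RasV12baz- tumours. The fitted differences of RasV12cdc42- minus RasV12baz- were -0.38 ± 0.39, 0.27 ± 0.38, 0.25 ± 0.34 and 0.16 ± 0.43 in the same order (adjusted p = 0.9997 for each). In that comparison 4 features passed (0.0357% of those tested), and 632 had an unadjusted p under 0.05. The numbers were 37 (0.330%) and 1184 without RasV12baz- replicate 4. A p that misses the threshold does not show that the genotypes were alike. The comparisons of both genotypes with RasV12scrib- share the RasV12scrib- arrays, so their values are given side by side only.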

How the data were processed

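The deposited values are log2 ratios, 1 column per array, with 0 missing values. That the base is 2 was read from the values: 36.7% of 409 repeated values match log2 of 1 whole number divided by another, neither above 9 (tolerance 1e-05), and 0% fit a natural or decimal logarithm. Per the labels' protocols, RNA isolated in TRIzol was amplified by random hexamer priming, with tumour RNA in Cy3 and reference RNA in Cy5 except on dye-swapped arrays. Scanner, background correction, normalization, array build and signal intensities are not given in the sources used here, so dim spots could not be filtered and the number of arrays limits the precision.

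No further normalization was applied. All 11196 features were fitted with limma 3.58.1 (R 4.3.3; lmFit and eBayes) on 15 replicates of 4 genotypes with a dye term, RafGOFscirb- replicates 1 and 2 averaged. Tests were two-sided with Benjamini-Hochberg adjustment at 0.05. No feature passed the threshold for the dye term (lowest adjusted p = 0.144), which does not show that a dye effect is absent. Because all RasV12baz- and RafGOFscirb- arrays had tumour RNA in Cy3, the dye term rests on RasV12scrib- and RasV12cdc42- alone. In RasV12cdc42- tumour RNA was in Cy5 on replicates 1 and 2 and in Cy3 on replicates 3 and 4. These were also its correlated pairs, so there dye and pair cannot be told apart. The fit was tested on simulated data. Figures were drawn with Python 3.11.15 and matplotlib 3.10.9.

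Symbols came from a RefSeq gene table: 71 features had 1 symbol, 1 had several and 11124 had none. Only 6 of 434 genes in 38 pathway, cell type and tissue lists had a named feature (Swim, Treh, Idgf3, Ts, LanA and Lsp2), so the other lists give no result. The text names features with a symbol that passed without overlap between the genotypes, called members of the lists, and at most 2 identifiers without symbol per direction; other names are marked as chosen after their values were seen, and the uncalled list members Idgf3, Treh and LanA are given for completeness. The comparison, the lists and the tests were chosen with earlier results of these data known. Alternatives were the scaling, the dye term, the arrays used, blocks, array weights and leaving out each array.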

Additional observations from a re-analysis of the deposited data

Results flagged for a closer look

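The genes and features named above, Herc4 left out, were examined on the RasV12baz- and RasV12scrib- arrays only. In 5 of the 32 genotype groups of 4 arrays, 1 array lay far from the other 3 by Dixon's criterion (critical value 0.829). Chance alone gives about 1 in 20 groups. Lsp2 was at -2.49 on RasV12scrib- replicate 4, with the other RasV12scrib- arrays at -4.44 to -4.36. AMPKalpha was at -0.0474 on RasV12baz- replicate 3, with the others at 0.41 to 0.48. Eig71Ee was at -1.98 on RasV12baz- replicate 4, with the others at -0.51 to -0.34, and at -1.19 on RasV12scrib- replicate 2, with the others at -2.59 to -2.44. FBgn0000071 was at 0.88 on RasV12baz- replicate 3, with the others at 1.76 to 1.93. The cause of these departures was not tested.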

How the results depend on the processing

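The number of features that differed between RasV12baz- and RasV12scrib- was within 1.5 times the 338 reported in 12 of 31 alternatives, and higher features outnumbered lower ones in all 31, by shares from 50.2% to 93.3%. It was 640 without the dye term, 75 on the Cy3 arrays, 36 with only these genotypes and the dye term, 162 with quantile normalization and 60 with equal spread. It was 1271 with array weights, whose estimation stopped before it converged, 27 with random blocks (estimated correlation 0.566), 723 with centred arrays and without RasV12baz- replicate 4, 780 without that array and RafGOFscirb- replicates 1 and 2, and 93 at an adjusted p under 0.01. Leaving out each array in turn gave 128 to 649. With the replicate number as a block 204 passed. Same-numbered samples did not deviate together (r = 0.05, 0.03, -0.07 and 0.12 for replicates 1 to 4). A batch shared across genotypes by replicates 1 and 2, or by 3 and 4, was not tested. RasV12scrib- replicates 1 and 2 correlated with RasV12cdc42- replicates 1 and 2 at 0.52 to 0.60, and with 3 and 4 at 0.31 to 0.41. RasV12scrib- replicates 3 and 4 correlated with RasV12cdc42- replicates 3 and 4 at 0.45 to 0.52, and with 1 and 2 at 0.29 to 0.42. RasV12baz- and RafGOFscirb- arrays followed this split only in part. The share of features at least 2-fold from the array median was a measure chosen after its values were seen. It differed by -9.27 to -7.45 points when each array was left out, and by -8.71 points on the Cy3 arrays (exact permutation p = 0.0667, the smallest possible). None of the 14 genes and features refitted under every alternative changed direction. Ebp, Sec24CD and Herc4 were not among these. Swim lost its call in 1 of 29 refits, CG12091 in 9, Ts in 12, Lsp2 in 17 and AMPKalpha in 23, and the 4 identifiers in none. Apart from the contrasts given, the cause of these shifts was not tested.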
